A study of Mus musculus with 284 samples.

Results

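Sox9-high and Sox9-low cells are the extremes of Sox9 transcript level among single tumour propagating cells of mouse skin tumours. Within each of 4 mice the cells were ordered by Sox9 in CPM (counts scaled to a common total per cell), and the top and bottom of 3 equal parts were compared. This gave 94 Sox9-high and 94 Sox9-low cells of 284 cells in all, with 96 cells between them. Tumour propagating cells are tumour cells able to seed a new tumour after transfer. The 4 mice were KO1 and KO3, labelled Sirt6-/-, and WT1 and WT2, labelled wild type, on the C57BL/6 background. All mice had the carcinogen DMBA once at 8 weeks of age and then TPA, a tumour promoter, over more than 20 weeks, and all cells carried a YFP reporter from the ROSA26 locus that Cre under the Keratin14 promoter had switched on. Living cells positive for CD34, CD49f (integrin alpha 6) and YFP were sorted singly into plates and their transcripts were read with a Smart-seq2 protocol.

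SOX9 is a transcription factor of the SRY-box family, which binds the minor groove of DNA through its HMG domain. In skin it is known for specifying and maintaining hair follicle stem cells, for reactivation in epidermal stem cells that enter a wound, and for driving tumour programmes in basal and squamous carcinomas. In cartilage it switches on matrix genes, and in skin stem cells it is known to open chromatin at follicle genes while epidermal genes are silenced. Differentiating keratinocytes leave the basal layer, lower their integrins and turn on suprabasal keratins, kallikreins and lipid enzymes.

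The Sox9-high cells numbered 24 in KO1, 18 in KO3, 23 in WT1 and 29 in WT2, with the same number of Sox9-low cells in each mouse. Plates followed the mice, and no plate held both genotypes, so that plate effects and genotype cannot be told apart. The second plate of KO1 held 5 of its 24 Sox9-high and 1 of its 24 Sox9-low cells, and that of WT2 held 2 Sox9-high and 3 Sox9-low cells. Totals lay between 523999 and 1684464 counts per cell over the series. By transcripts the compared cells were keratinocytes: Krt5 and Krt14 had counts in 100% of the cells of both classes. The fibroblast markers Col1a1, Col1a2, Col3a1, Dcn and Lum, the endothelial Kdr and the melanocyte Dct and Tyrp1 were at 0 in both classes. Pdgfra, Pecam1, Cdh5 and Pmel, of the same cell types, were not. The highest of their sums was 8.93 CPM, for Pecam1 in Sox9-low cells of KO1. Sirt6 itself lay at 27 and 14.5 CPM in KO1 and KO3, against 16.7 and 25.2 CPM in WT1 and WT2, so its level did not part the labelled genotypes.

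Sox9 (ENSMUSG00000000567.5; GRCm38 chromosome 11, 112782224 to 112787760) set the classes, and its values are given as a description. In KO1 the Sox9-high cells ran between 138 and 1535.7 CPM with a median of 254.4, and the Sox9-low cells between 0 and 21.1 CPM. The Sox9-high cells of KO3 ran between 29.3 and 963.8 CPM with a median of 56.7, and each of its 18 Sox9-low cells had a count of 0. WT1 had Sox9-high cells between 122.5 and 1479.9 CPM (median 212.9), against Sox9-low cells between 0 and 24.4 CPM (median 0.9). The same classes thus hold different absolute levels in different mice. WT2 was the richest in Sox9: its Sox9-high cells ran between 296.7 and 1519.3 CPM (median 437.6) and its Sox9-low cells between 0 and 81.6 CPM (median 35.5), and 4 of these 29 cells had no count, against 15 of 24 in KO1 and 10 of 23 in WT1. The median Sox9-low cell of WT2 thus lay above the lowest Sox9-high cell of KO3. At the upper border the last cell inside and the first outside had 138 and 135.1 CPM in KO1, 29.3 and 28.3 in KO3, 122.5 and 109.8 in WT1, and 296.7 and 264.8 in WT2. At the lower border the lowest middle cell and the highest Sox9-low cell had 28.3 and 21.1 CPM in KO1, 24.8 and 24.4 in WT1, and 94.2 and 81.6 in WT2, while in KO3 both were at 0 and column order decided.

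**Figure D1:**
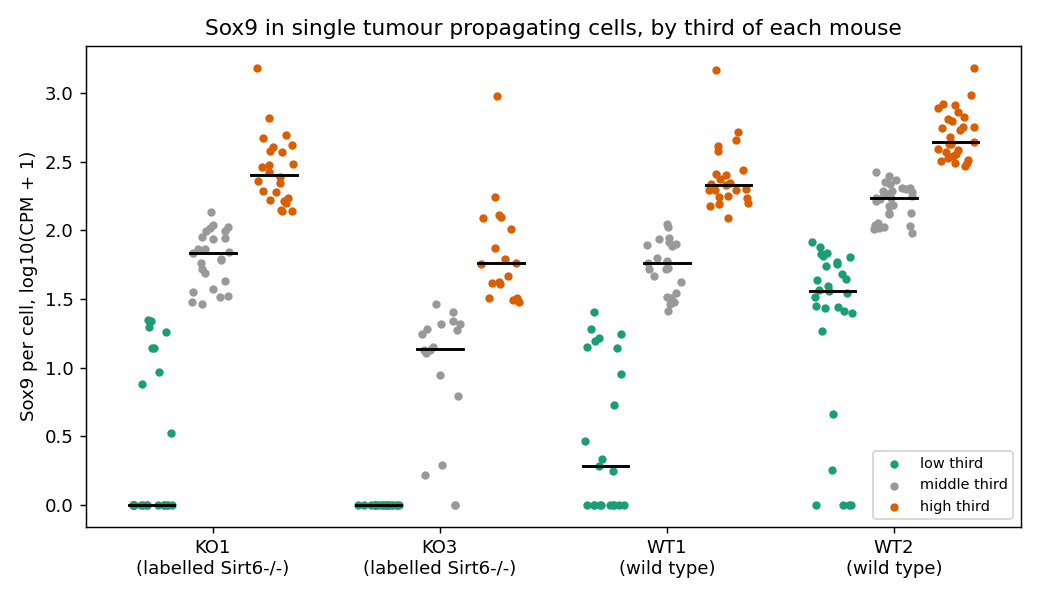
Sox9 per cell as log10(CPM + 1) in the 4 mice, with the cells of the low, middle and high classes side by side, each dot a cell and each bar the median of its class. The Sox9-low medians are at 0 in KO1 and KO3, at 0.9 CPM in WT1 and at 35.5 CPM in WT2, and the highest cell of each mouse lies at or above 963.8 CPM.

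The level of Sox9 over all cells of a mouse was not used in forming the classes and could be compared between genotypes. Summed over cells it was 134.6 CPM in KO1 and 42.5 CPM in KO3, against 110.5 CPM in WT1 and 244.8 CPM in WT2. The mice labelled Sirt6-/- averaged 88.6 ± 65.1 CPM and the wild type 178 ± 95 CPM (SD, n = 2 mice each), and the ranges overlapped (p = 0.667 in a two-sided exact permutation test, where the design allows no p under 0.333). The log2 fold change was -1.07 (edgeR quasi-likelihood, adjusted p = 0.968 over 16567 genes). Cells with a Sox9 count made up 79.5% of KO1 (95% Clopper-Pearson interval 68.4 to 88) and 63% of KO3 (48.7 to 75.7), against 85.5% of WT1 (75 to 92.8) and 95.5% of WT2 (88.8 to 98.7). With every cell thinned to 500000 counts the shares were 78.1% and 61.1%, against 81.2% and 94.3%. These intervals cover the sampling of cells within a mouse only, and not the spread between mice.

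Sox9-high cells had fewer detected genes in 3 of 4 mice. The median cell had 5911 detected genes in Sox9-high cells of KO1, 6773.5 in KO3, 6204 in WT1 and 5384 in WT2, against 6655, 6646.5, 7109 and 6136 in the Sox9-low cells of the same mice. The mean difference was -568.5 genes (exact sign-flip permutation test over 4 mice, two-sided, p = 0.25, smallest possible 0.125). Total counts differed by a mean of -42468 (the same exact test, p = 0.375). Both quantities entered each gene's fit as covariates, within each mouse, as set together with the choice of classes. Without them the median over all genes tested moved to -0.24 on the log2 scale, and 237 genes lay higher and 1367 lower in Sox9-high cells at an unadjusted limma p under 0.05, with 0 called. With them that median was 0.01.

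The main comparison asked which transcripts go with Sox9 within a mouse. Values were log2(CPM + 1) per cell, the Sox9-high minus Sox9-low difference was fitted in each mouse, and the 4 differences were tested with limma. Tested were the 8473 genes detected, in every mouse, in no fewer than 20% of its cells. None passed an adjusted p of 0.05 (0 called, 0.0% of genes tested; smallest adjusted p = 0.449). At an unadjusted limma p under 0.05, 401 genes (4.73%) lay higher and 374 (4.41%) lower in Sox9-high cells. The difference was above 0 in all 4 mice for 765 genes (9.03%) and below 0 in all 4 for 651 (7.68%). edgeR on counts summed per class and mouse, with the mouse as replicate block, also called 0 genes (smallest adjusted p = 0.0795; 513 or 6.05% higher and 477 or 5.63% lower at an unadjusted p under 0.05). DESeq2 on the same sums with the same block called 381 genes, 219 higher (2.58%) and 162 lower (1.91%), of which 218 had 1 sign of the difference in all 4 mice. A test of partial correlations with Sox9 over all cells, including the middle ones, called 55 genes, 39 higher (0.46%) and 16 lower (0.189%). Of these 55 genes 39 were also called by DESeq2 in the same direction, which is 70.9% of the 55 and 10.2% of the 381. The genes named next were not called by limma, and their values are given as measured.

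WT2 stood apart from the other mice in the fit with covariates. Over the 8473 genes, the differences of KO1, KO3 and WT1 correlated with each other at a Pearson r of 0.19 for each pair, while those of WT2 correlated with KO1, KO3 and WT1 at 0.01, 0.02 and 0. Without the covariates the pairs among KO1, KO3 and WT1 had 0.22, 0.36 and 0.21, and WT2 had 0.26, 0.12 and 0.24 with KO1, KO3 and WT1. The separation of WT2 was thus larger in the fit with covariates, and its cause was not tested. These are correlations across genes, which are not independent replicates. Without WT2 limma called 0 genes, with a smallest adjusted p of 0.268, and 936 genes were under an unadjusted p of 0.05, against 775 with all mice. For part of the genes and lists where WT2 went another way, medians without covariates or sums are given beside the fit. The sums carry no covariates either.

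The 12 genes with the smallest limma p among those higher in Sox9-high cells of every mouse included adhesion, matrix and trafficking genes. Nedd9 (ENSMUSG00000021365.15, chromosome 13), an adaptor of integrin and focal adhesion signalling, had the largest difference. Its summed level was 116, 33.6, 149 and 116 CPM in Sox9-high cells of KO1, KO3, WT1 and WT2, against 24.03, 31, 28.9 and 17.7 CPM in Sox9-low cells. All 4 Sox9-high sums lay above all 4 Sox9-low sums, narrowly in KO3, and the fitted difference was 2.23 (SE 0.27, limma adjusted p = 0.449). Counts of Nedd9 were found in 54.3% of the Sox9-high and 14.9% of the Sox9-low cells. Bmp1, the metalloprotease that trims procollagen, lay at 111, 68.8, 121 and 99.2 CPM in Sox9-high cells of KO1, KO3, WT1 and WT2, against 39.8, 40.9, 42.4 and 28.9 CPM in Sox9-low cells, again without overlap (difference 1.87, SE 0.25). Flrt2, a transmembrane protein of cell adhesion and guidance, lay at 76.96, 50.4, 173 and 50.9 CPM in the Sox9-high cells of those mice, against 45.7, 12.5, 48.3 and 21.48 CPM in the Sox9-low cells (difference 2.09, SE 0.38). Trp73, a transcription factor of the p53 family, lay at 95.1, 24.6, 30.7 and 75.7 CPM in Sox9-high cells, against 50.5, 3.38, 8.39 and 41.8 CPM in Sox9-low cells of KO1, KO3, WT1 and WT2. The Trp73 sums of the 2 classes overlapped between mice but were ordered the same way in each mouse (difference 1.66, SE 0.22).

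The other 8 of these genes had differences between 1.19 and 1.85. They were Gga2 (a clathrin adaptor of the Golgi), Rab32 (a small GTPase of organelle traffic), H2afy2 (a macroH2A histone), Cpne8 (a copine, which binds membranes with calcium), Marcksl1 (an actin-linked kinase substrate), Slc11a2 (an iron transporter), Arhgef2 (an exchange factor for RHOA) and St5 (an activator of RAB GTPases). The sums were higher in the Sox9-high cells of all 4 mice for each of the 12 genes, and for 6 of the 12 no Sox9-high sum fell among the Sox9-low sums, against 1.4% of all genes tested. The 12 were chosen by their differences, so this share describes them and is no further evidence. DESeq2 called 10 of the 12 higher, against 2.58% of all genes, and the same choice applies.

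Among the 12 genes lower in Sox9-high cells of every mouse, an epidermal protease and enzymes of metabolism were found. Tmprss13 (ENSMUSG00000037129.7, chromosome 9), a membrane-anchored serine protease of stratified epithelia, lay at 43.9, 88.2, 36.1 and 73.1 CPM in Sox9-high cells of KO1, KO3, WT1 and WT2, against 105, 184, 88.5 and 101 CPM in Sox9-low cells. No Sox9-high sum of Tmprss13 reached a Sox9-low sum, though the highest of the first was close to the lowest of the second (difference -2.28, SE 0.25, limma adjusted p = 0.449). Gpt, alanine aminotransferase, lay at 16.2, 82.9, 25.2 and 55.2 CPM in Sox9-high cells, against 57.3, 142, 80.9 and 178 CPM in Sox9-low cells of the same mice (difference -2.26, SE 0.31). Counts of Gpt were found in 39.4% of the Sox9-high and 80.9% of the Sox9-low cells. Ptprz1, a receptor tyrosine phosphatase, lay at 90.9, 205, 120 and 76.1 CPM in Sox9-high cells, against 208, 316, 308 and 101 CPM in Sox9-low cells (difference -1.69, SE 0.26). Both genes were ordered the same way in each mouse with overlap between mice.

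The remaining 9 genes of this direction had differences between -1.77 and -1.20. They were Vopp1, Dimt1 (a ribosomal RNA methyltransferase), Hebp2 (a haem-binding protein), Kti12 (a partner of the Elongator complex), Endou (an endoribonuclease), Dcaf17 (a substrate receptor of CUL4 ubiquitin ligases), Foxred1 (an assembly factor of respiratory complex I), Atp11b (a phospholipid flippase) and Ptgr1 (prostaglandin reductase). Of the 12, the Sox9-high sum was the lower one in all 4 mice for 11, and in 5 the classes did not overlap at all, against 1.26% of all genes tested. The exception was Kti12 in KO1, at 130.5 CPM in Sox9-high and 130.2 CPM in Sox9-low cells. DESeq2 called 10 of the 12 lower, against 1.91% of all genes, for genes chosen by their differences. The middle cells, which these differences did not use, fell between the low and high classes in the fit for each of the 24 genes, against 38.3% of all genes tested. They were set against the same Sox9-low and Sox9-high cells that chose the genes, so this share is a description only.

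**Figure D2:**
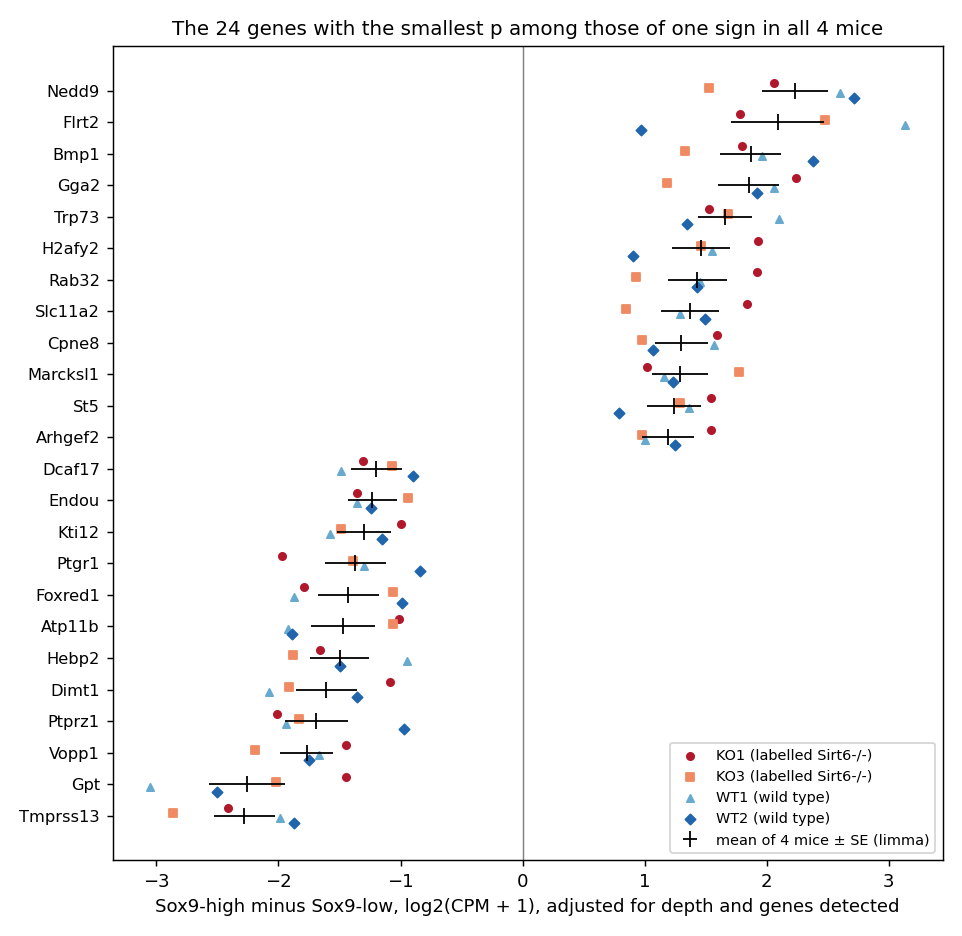
Sox9-high minus Sox9-low difference of log2(CPM + 1), adjusted for total counts and genes detected, for the 24 genes, with a symbol per mouse and the mean of 4 mice with its limma standard error. Every symbol of the 12 upper genes lies right of 0 and every symbol of the 12 lower genes left of it, by the choice of genes. Differences reach 2.23 for Nedd9 and -2.28 for Tmprss13.

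Promoter sequences of these genes were read for the core that SOX factors bind, a description of their starts and not of binding. The RefSeq table of windows from 250 bases before to 50 bases after a start (GRCm38.p6) held 8 of the 12 higher and 9 of the 12 lower genes. The motifs searched were ACAAAG and ACAATG on both strands, and a window with several matches was counted once. At least 1 of the 2 was found in 2 of the 8 higher genes (16.7% of their 12 windows) and in 0 of the 9 lower genes, against 18.4% of the windows of all genes tested and 28.6% of all windows in the table. The share in the higher genes was near that of the genes tested. The windows of the 2 higher genes and of Jag1 and Pdpn, the genes whose levels went most closely with that of Sox9, are printed with the motif in capitals. A match says that the letters are there and not that SOX9 binds them.
Nedd9, chr13:41358952-41359251, minus strand: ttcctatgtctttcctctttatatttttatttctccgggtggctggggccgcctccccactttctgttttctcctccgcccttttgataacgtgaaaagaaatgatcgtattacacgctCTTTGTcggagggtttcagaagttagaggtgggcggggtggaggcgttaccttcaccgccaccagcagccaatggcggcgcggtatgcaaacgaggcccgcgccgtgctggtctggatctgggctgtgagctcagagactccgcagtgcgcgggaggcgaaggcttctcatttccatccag
Flrt2, chr12:95691976-95692275, plus strand: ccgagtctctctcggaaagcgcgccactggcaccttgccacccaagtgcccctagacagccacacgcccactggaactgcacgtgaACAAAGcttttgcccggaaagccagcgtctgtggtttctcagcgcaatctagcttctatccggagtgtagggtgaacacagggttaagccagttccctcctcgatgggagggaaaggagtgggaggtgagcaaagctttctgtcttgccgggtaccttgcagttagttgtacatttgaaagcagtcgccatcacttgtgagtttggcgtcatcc
Jag1, chr2:137116471-137116770, minus strand: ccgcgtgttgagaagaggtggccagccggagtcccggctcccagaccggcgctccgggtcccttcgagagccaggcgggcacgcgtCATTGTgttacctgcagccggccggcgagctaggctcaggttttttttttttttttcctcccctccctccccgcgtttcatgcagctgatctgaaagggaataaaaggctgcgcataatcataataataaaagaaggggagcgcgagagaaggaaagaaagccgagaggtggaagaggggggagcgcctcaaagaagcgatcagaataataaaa
Pdpn, chr4:143299515-143299814, minus strand: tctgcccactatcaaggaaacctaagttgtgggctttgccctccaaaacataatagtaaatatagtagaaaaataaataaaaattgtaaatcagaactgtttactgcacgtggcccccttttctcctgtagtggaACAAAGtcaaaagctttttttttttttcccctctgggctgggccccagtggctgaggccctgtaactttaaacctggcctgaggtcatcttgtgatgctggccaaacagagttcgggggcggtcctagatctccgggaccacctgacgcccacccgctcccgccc

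Genes most like Sox9 were found from the partial Pearson correlation with Sox9 over all cells of a mouse, after the trends on total counts and genes detected were removed. The 10 highest means over the 4 mice lay between 0.25 and 0.31 and the 5 lowest between -0.28 and -0.25, over 73, 54, 69 and 88 cells in KO1, KO3, WT1 and WT2. All are descriptions over cells that share a mouse and mostly a plate. Whether low values per cell bear on the size of these correlations was not tested. Jag1, a ligand of Notch receptors, came first at 0.45, 0.35, 0.40 and 0.03 in KO1, KO3, WT1 and WT2. Its summed level was 534, 334, 322 and 689 CPM in Sox9-high cells, against 236, 150, 125 and 419 CPM in Sox9-low cells (difference 1.29, SE 0.31). Pdpn, the mucin-type glycoprotein podoplanin of wound and tumour edge keratinocytes, followed at a mean of 0.29. It lay at 130, 79.1, 77.8 and 93.9 CPM in Sox9-high cells, against 49.01, 29.3, 20.4 and 45.7 CPM in Sox9-low cells, with no overlap of the classes (difference 2.12, SE 0.41).

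Nrg1, a ligand of ERBB receptors, lay at 99.7, 98.5, 85.5 and 82.7 CPM in Sox9-high cells of KO1, KO3, WT1 and WT2, against 58.9, 33.6, 45.5 and 39.5 CPM in Sox9-low cells. Thbs1, the matrix protein thrombospondin, lay at 1070, 431, 629 and 2564 CPM in Sox9-high cells, against 325, 125, 181 and 1356 CPM in Sox9-low cells. In WT2 the sums of Thbs1 and its fitted difference of -0.29 had opposite signs, and without covariates the difference per cell was 2.06. The other genes of this rule were Tmem176a, the AP-1 gene Fosb, the co-chaperone gene Dnajb1, the TGF-beta induced gene Pmepa1, and Nedd9 and Flrt2 again. At the opposite end stood Gpt and Tmprss13 again, the kallikrein Klk11, and the carriers of retinoic acid and fatty acids, Crabp2 and Fabp5. Fabp5, among the most abundant of these, lay at 1824, 3254, 1726 and 1080 CPM in Sox9-high cells, against 5482, 4373, 2980 and 2275 CPM in Sox9-low cells. Klk11 lay at 7.93, 19.04, 9.28 and 13.6 CPM in Sox9-high cells, against 51.5, 48.9, 31.96 and 28.5 CPM in Sox9-low cells.

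**Figure D3:**
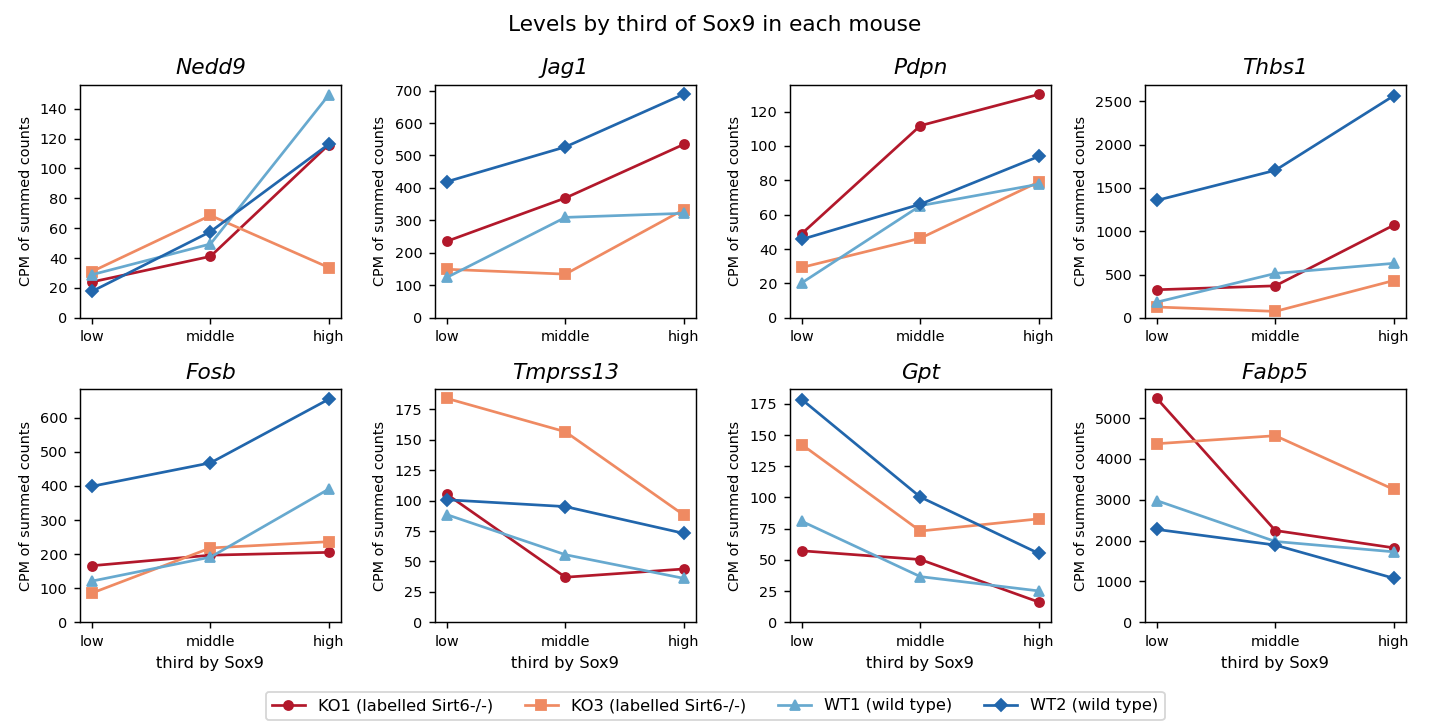
CPM of counts summed over the cells of the low, middle and high classes of Sox9, with a line per mouse, for 5 genes higher and 3 genes lower in Sox9-high cells. Jag1, Pdpn, Thbs1 and Fosb are higher in the high than in the low class of every mouse, and Tmprss13, Gpt and Fabp5 are lower. Nedd9 of KO3 is nearly level, at 33.6 against 31 CPM.

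Other SOX factors did not follow Sox9 as a family. Of 18 SOX genes besides Sox9, 2 passed the detection filter: Sox15, of basal keratinocytes, differed by -0.34 (SE 0.33) and Sox7 by 0.12 (SE 0.33), and the sign varied between mice for both. Both signs also turned under some alternatives. Sox4 and Sox13, which were not tested, had counts in 22.3% and 10.6% of the Sox9-high cells, against 10.6% and 29.8% of the Sox9-low cells. Thinned to 500000 counts these shares were 20.2% and 9.6% in Sox9-high cells, against 7.4% and 29.8% in Sox9-low cells. None of the 15 cartilage matrix genes that SOX9 is known to switch on passed the filter (0 tested). Matn4, of that list, had counts in 16% of the Sox9-high cells (15 cells) and 7.4% of the Sox9-low cells (7 cells). Sox4, Sox13 and Matn4 were singled out after their values were seen.

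Among 24 tested transcription factors of the epidermis and its tumours, 0 were called by limma. Of the 24, 3 lay above 0 and 2 below 0 in all 4 mice, against 9.03% and 7.68% of all genes. Only part of the 24 are named here. Pitx1, a homeodomain factor known from squamous tumour propagating cells, lay at 21.6, 61.3, 13.4 and 4.62 CPM in Sox9-high cells of KO1, KO3, WT1 and WT2, against 64.7, 103, 98.6 and 9.06 CPM in Sox9-low cells (difference -1.25, SE 0.36). The Sox9-high value was the lower one in each mouse, and WT2 had little Pitx1 in either class. Trp63, the master factor of stratified epithelium, lay at 424, 367, 600 and 488 CPM in Sox9-high cells, against 318, 232, 333 and 421 CPM in Sox9-low cells, while its fitted difference was 1.54, 1.26 and 1.22 in KO1, KO3 and WT1 and -0.23 in WT2. Grhl3 and Grhl1, grainyhead factors of the epidermal barrier, differed by -1.39 (SE 0.61) and -1.17 (SE 0.53), with WT2 at 0.95 and 0.80 against negative values in the other mice. Zfp36l1, an RNA-binding protein that destabilises transcripts and was listed with the factors, differed by 0.95 (SE 0.33), Gata3 by 1.04 (SE 0.42) and Ets2 by 0.82 (SE 0.34).

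Suprabasal differentiation genes had a median below 0 in Sox9-high cells of 3 mice in the fit, and of all 4 mice without covariates. Of 27 genes in the list 14 passed the filter and 0 were called, with a median difference of -1.19 against 0.01 for all genes tested. The difference was below 0 in 12 of 14 on average, and in 6 of 14 in every mouse, against 7.68% of all genes. The median was -2.14 in KO1, -1.82 in KO3 and -0.68 in WT1, but 0.23 in WT2, where 6 of 14 members lay below 0. Without covariates the medians were -2.68, -1.56, -1.75 and -1.49 in KO1, KO3, WT1 and WT2, and in the sums 9 of 14 members were lower in Sox9-high cells of all 4 mice, against 10.7% of all genes. Calm4, a calmodulin-like protein of differentiating epidermis, lay at 651, 680, 301 and 511 CPM in Sox9-high cells of KO1, KO3, WT1 and WT2, against 1451, 813, 425 and 859 CPM in Sox9-low cells (difference -1.99, SE 0.39). Ly6d, a surface protein of differentiating keratinocytes, lay at 314, 1044, 345 and 238 CPM in Sox9-high cells, against 1081, 1414, 785 and 429 CPM in Sox9-low cells (difference -1.67, SE 0.39). Krtdap, a keratinocyte differentiation protein, differed by -0.91 (SE 0.23). The Sox9-high value of these 3 genes was the lower one in each mouse. DESeq2 called 9 of the 14, each lower, against 1.91% of all genes. The suprabasal keratins Krt1 and Krt10, named after their values were seen, did not follow this order in every mouse. Krt1 lay at 26.5, 160, 376 and 1252 CPM in Sox9-high cells of KO1, KO3, WT1 and WT2, against 311, 516, 73.7 and 1308 CPM in Sox9-low cells. Krt10 lay at 4.31, 109, 192 and 676 CPM in the Sox9-high cells, against 66.8, 203, 26.8 and 613 CPM in the Sox9-low cells. Their fitted differences were negative in KO1 and KO3 (-1.98 and -2.77 for Krt1, -1.66 and -2.28 for Krt10) and positive in WT1 and WT2 (0.46 and 0.38 for Krt1, 0.37 and 0.21 for Krt10).

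The keratins of wounded epidermis and their partners gave a like picture, with 7 of 10 tested, 0 called by limma and a median of -1.06. Krt6b lay at 411, 2390, 604 and 377 CPM in Sox9-high cells of KO1, KO3, WT1 and WT2, against 4070, 4969, 5070 and 551 CPM in Sox9-low cells. Krt6a lay at 1488, 4217, 2539 and 1076 CPM in the Sox9-high cells, against 5551, 6324, 6417 and 1610 CPM in the Sox9-low cells. WT2 had low Krt6a and Krt6b in both classes, and its list median was 0.25, or -0.20 without covariates. Il1rn, the interleukin-1 receptor antagonist, differed by -1.12 (SE 0.32), and S100a8, an alarmin, by -0.57 (SE 0.27). DESeq2 called 4 of the 7 lower and 1 higher, against 1.91% and 2.58% of all genes.

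Basal keratinocyte genes leaned the other way in 3 mice. The list had 18 of 19 members tested, 0 called and a median of 0.66, with 15 of 18 above 0 on average and 3 of 18 in all 4 mice, against 9.03% of all genes. In KO1, KO3 and WT1 the medians were 0.94, 1.17 and 0.29, and in WT2 the median was -0.19 with 5 of 18 above 0, or 0.18 without covariates. Cav1, the caveolae coat protein, lay at 150, 124, 327 and 394 CPM in Sox9-high cells of KO1, KO3, WT1 and WT2, against 67.7, 32.9, 218 and 315 CPM in Sox9-low cells (difference 1.44, SE 0.46). The integrin genes Itga3 and Itgb1, which anchor basal cells to laminin and other matrix, differed by 1.27 (SE 0.41) and 1.23 (SE 0.43). Their differences were 2.09 and 2.00 in KO1 and 2.07 and 2.28 in KO3, against -0.05 and 0.07 in WT1 and 0.98 and 0.59 in WT2.

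Hair follicle genes, of which SOX9 is a known regulator, were sparse. Of 18 in the list 7 passed the filter and 0 were called, with a median of 1.04. On average 6 of the 7 lay above 0, and 1, which is not named here, lay below 0. Per mouse the median was 1.07 in KO1, 1.24 in KO3, 1.37 in WT1 and -0.01 in WT2. Cxcl14 and Vdr, a chemokine and the vitamin D receptor of the follicle, lay above 0 in all 4 mice in the fit, at 1.04 (SE 0.22) and 0.90 (SE 0.21). In sums Cxcl14 went the other way in KO1, at 73.9 CPM in Sox9-high and 89.4 CPM in Sox9-low cells. The sums of Vdr in KO3 were level, at 87.7 CPM in both classes. Krt15, a keratin of bulge and basal cells, lay at 1826, 395, 3712 and 1442 CPM in Sox9-high cells of KO1, KO3, WT1 and WT2, against 304, 848, 607 and 1233 CPM in Sox9-low cells. Its fitted difference was 2.39 (SE 0.71), with 4.58, 2.03 and 2.97 in KO1, KO3 and WT1 and -0.01 in WT2, and in KO3 sum and fit had opposite signs. Cd34, whose protein was gated in every cell, differed by 1.52 (SE 0.53), Tcf7l2, a WNT effector, by 1.11 (SE 0.56), and Gas1, a Hedgehog co-receptor, by 0.69 (SE 0.29). In the fit Cd34, Tcf7l2 and Gas1 lay above 0 in KO1, KO3 and WT1 and below 0 in WT2. Their sums in WT2 were nonetheless higher in Sox9-high cells, at 152, 51.8 and 42.1 CPM against 134, 45.5 and 22.0 CPM in Sox9-low cells. Without covariates the WT2 differences per cell were -0.91 for Cd34, -0.78 for Tcf7l2 and 0.09 for Gas1. For Cd34 and Tcf7l2 only the sums therefore went against the fit in WT2. The sums of Cd34 in KO3 went against the fit, at 181 CPM in Sox9-high and 205 CPM in Sox9-low cells.

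**Figure D4:**
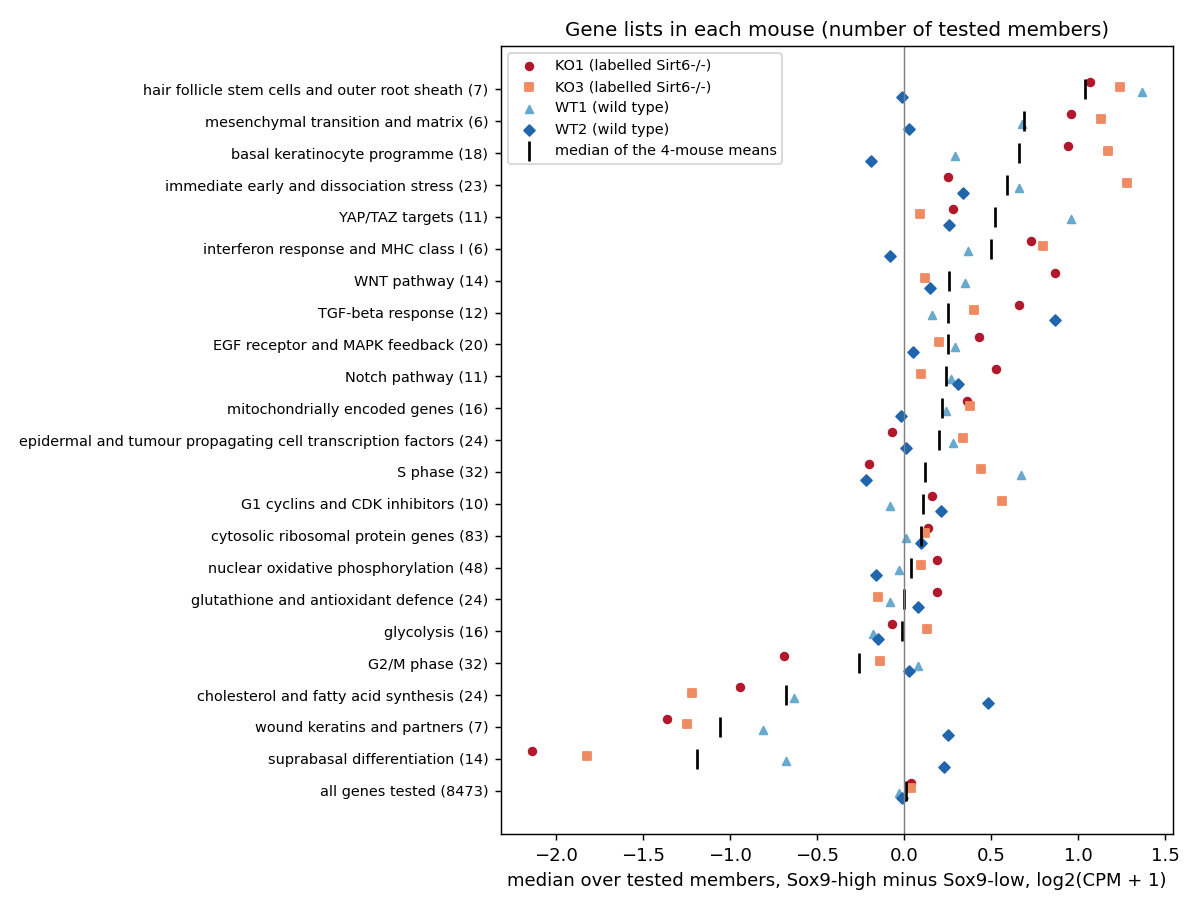
Median Sox9-high minus Sox9-low difference over the tested members of each list, with a symbol per mouse and a bar for the median of the 4-mouse means; the number tested is in brackets. With covariates in the fit, suprabasal, wound keratin and lipid synthesis lists lie left of 0 in KO1, KO3 and WT1 and right of it in WT2, and follicle and basal lists lie right of 0 in the first 3 mice.

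Ligands and receptors of signalling pathways were read next. In the Notch pathway 11 of 19 genes were tested and 0 called, with a median of 0.31 in WT2 against 0.24 over the mice. Of the 11, 4 lay above 0 and 1 below 0 in all 4 mice, against 9.03% and 7.68% of all genes. Without covariates the Notch median was 0.04 over the mice and -0.30 in WT2. The ligand Dll1 lay at 120, 25.2, 56.8 and 134 CPM in Sox9-high cells of KO1, KO3, WT1 and WT2, against 29.2, 17.3, 10.9 and 37.0 CPM in Sox9-low cells, so both ligands Jag1 and Dll1 were higher in the Sox9-high class of each mouse. The receptor Notch3 lay at 20.8, 14.5, 6.98 and 16.1 CPM in Sox9-high cells, against 44.8, 15.2, 34.03 and 20.3 CPM in Sox9-low cells (difference -1.30, SE 0.25).

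For the WNT pathway 14 of 33 genes were tested and 0 were called (median 0.26, in WT2 0.15). Of the 14, 4 lay above 0 and 0 below 0 in all 4 mice, against 9.03% and 7.68% of all genes. Without covariates the WNT median was -0.00 over the mice and 0.53 in WT2. Porcn and Wls, which acylate and carry WNT ligands out of the cell, differed by 1.51 (SE 0.30) and 1.41 (SE 0.39). Porcn lay at 223, 82.1, 174 and 142 CPM in Sox9-high cells of KO1, KO3, WT1 and WT2, against 108, 59.1, 81.8 and 27.1 CPM in Sox9-low cells, the larger value in each mouse being that of the Sox9-high cells. The ligand Wnt10a differed by 1.62 (SE 0.46) and was at -0.07 in WT2, and the secreted Dkk3 by 1.32 (SE 0.33). Of 12 Hedgehog pathway genes 4 were tested, 0 were called, and the co-receptor Boc lay above 0 in all 4 mice at 1.19 (SE 0.33).

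TGF-beta response genes had 12 of 21 tested, 0 called and a median of 0.25, with 4 of 12 above 0 in all 4 mice, against 9.03% of all genes. In this list WT2 went with the other mice in the fit, with a median of 0.87. Without covariates the medians were 0.78, 0.39, -0.38 and 0.52 in KO1, KO3, WT1 and WT2. Pmepa1, a feedback inhibitor, differed by 2.05 (SE 0.40), and the SMAD co-repressors Tgif1 and Skil by 1.30 (SE 0.33) and 0.89 (SE 0.21). Skil lay at 111, 73.8, 138 and 128 CPM in Sox9-high cells of KO1, KO3, WT1 and WT2, against 29.6, 46.1, 43.7 and 72.2 CPM in Sox9-low cells, without overlap. The receptor Tgfbr2 differed by 1.00 (SE 0.38). Of 21 genes of mesenchymal transition and matrix, 6 were tested and 0 called, all 6 above 0 on average, while in WT2 the median was 0.03 with 3 of 6 below 0. Among these the membrane protease Mmp14 differed by 1.14 (SE 0.35) and the matrix glycoprotein Tnc by 0.83 (SE 0.32). YAP/TAZ targets had 11 of 21 tested, 0 called and a median of 0.52 (0.26 in WT2), with Ajuba at 1.47 (SE 0.38) and Amotl1 at 0.79 (SE 0.24).

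In the list of EGF receptor ligands and MAPK feedback genes, 20 of 25 were tested and 0 called (median 0.25, in WT2 0.05). Of the 20, 5 lay above 0 and 1 below 0 in all 4 mice, against 9.03% and 7.68% of all genes. Without covariates the median of this list was 0.05 over the mice and -0.39 in WT2. Tgfa, a ligand, differed by 1.11 (SE 0.35), Spred1, a RAS-ERK inhibitor, by 0.64 (SE 0.22), and Epcam, an epithelial adhesion protein that was placed in the list, by 1.19 (SE 0.44). Erbb3, a receptor of NRG1, differed by -0.62 (SE 0.24) and was the member below 0 in every mouse. For Tgfa the fit and the sums diverged, with 93.7, 81.4, 148 and 32.2 CPM in Sox9-high cells of KO1, KO3, WT1 and WT2, against 83.8, 51.5, 126 and 44.1 CPM in Sox9-low cells, lower in the Sox9-high cells of WT2. Sums of Spred1 were lower in Sox9-high cells of KO3 (11.4 against 22.9 CPM) and WT1 (6.78 against 7.89 CPM). Those of Epcam were lower in Sox9-high cells of WT2 (112 against 145 CPM).

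Immediate early and dissociation stress genes had a median above 0 in every mouse. Of 26 genes 23 were tested and 0 called by limma, with a median of 0.59 and 22 of 23 above 0 on average. The difference was above 0 in all 4 mice in 11 of 23, against 9.03% of all genes. DESeq2 called 14 of 23, each higher, against 2.58% of all genes. Their mean log2 level was 7.5, 7.85, 7.93 and 8.74 in Sox9-high cells of KO1, KO3, WT1 and WT2, against 7.04, 6.55, 7.07 and 8.38 in Sox9-low cells. Nr4a1, a nuclear receptor induced within minutes of stimulation, lay at 951, 751, 709 and 2581 CPM in Sox9-high cells, against 412, 227, 385 and 1637 CPM in Sox9-low cells. Fosb lay at 205, 237, 391 and 655 CPM in the Sox9-high cells of those mice, against 166, 85.9, 121 and 399 CPM in the Sox9-low cells. Both genes, and Klf6 and Dnajb1 with differences of 0.98 (SE 0.28) and 1.11 (SE 0.30), were highest in WT2 in either class. This list holds genes that enzymatic dissociation of tissue is known to induce. With its mean level added to the fit, limma called 0 genes (smallest adjusted p = 0.51) and no sign of the 24 genes turned. The fit without this level also called 0 genes, and the 24 were chosen for 1 sign in every mouse. That alternative therefore cannot show the part of this list in the other differences, which was not tested.

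Lipid synthesis genes had a median below 0 in Sox9-high cells of 3 mice in the fit, and of all 4 mice without covariates. Of 26 genes of cholesterol and fatty acid synthesis 24 were tested and 0 called, with a median of -0.68 and 22 of 24 below 0 on average. The fitted difference was below 0 in every mouse for 3 of 24, against 7.68% of all genes, and 16 of 24 lay above 0 in WT2. Per mouse the median was -0.94 in KO1, -1.22 in KO3 and -0.63 in WT1, against 0.48 in WT2. Without covariates the medians were -1.67, -1.18, -1.23 and -0.77 in KO1, KO3, WT1 and WT2, and 11 of 24 sums were lower in Sox9-high cells of all 4 mice, against 10.7% of all genes. Fdps, farnesyl diphosphate synthase, lay at 61.6, 203, 77.5 and 48.8 CPM in Sox9-high cells of KO1, KO3, WT1 and WT2, against 203, 317, 209 and 94.6 CPM in Sox9-low cells (difference -0.91, SE 0.35). Stard4, a carrier of cholesterol, lay at 3.58, 10.5, 4.05 and 18.2 CPM in the Sox9-high cells, against 43.2, 64.1, 38.6 and 22.7 CPM in the Sox9-low cells, with no overlap. In WT2 the fitted differences of Fdps and Stard4 were 0.27 and 0.81, against the direction of their sums, and -1.13 and -0.31 without covariates. Lss and Fdft1, lanosterol and squalene synthase, differed by -1.27 (SE 0.38) and -0.85 (SE 0.33).

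Glycolysis genes, the subject of the series' title, lay near 0 as a list in the fit, and at a median of -0.29 without covariates. Of 22 genes 16 were tested and 0 called, with a median of -0.01, 7 above and 9 below 0 on average. In summed counts 7 of the 16 were lower in Sox9-high cells of all 4 mice and 0 were higher in all 4, against 10.7% lower and 10.3% higher over all genes. Ldha, lactate dehydrogenase, lay at 3711, 6455, 4985 and 3038 CPM in Sox9-high cells of KO1, KO3, WT1 and WT2, against 5566, 8636, 6254 and 4302 CPM in Sox9-low cells, lower in each mouse. Its fitted difference was small, at -0.22 (SE 0.19). Oxidative phosphorylation genes of the nucleus had a median of 0.04 over 48 genes (-0.16 in WT2), and antioxidant genes lay near 0 over 24 (0.08 in WT2). Among the antioxidant genes Gsta4, a glutathione transferase of lipid aldehydes, lay at 1376, 1650, 892 and 386 CPM in Sox9-high cells, against 2078, 2720, 1793 and 813 CPM in Sox9-low cells (difference -0.97, SE 0.21). Gsto1 and Srxn1 differed by -0.64 (SE 0.26) and -0.93 (SE 0.32), and Txnrd1 by 1.03 (SE 0.28).

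Cell cycle genes depended on the covariates. G2/M genes had 32 of 52 tested, 0 called and a median of -0.26 in the fit (0.03 in WT2), -1.04 in the same fit without covariates, and a median edgeR log2 fold change of -0.63 in the sums, where 17 of 32 were lower in Sox9-high cells of all 4 mice, against 10.7% of all genes. Birc5, survivin of the mitotic spindle complex, lay at 21.3, 84.5, 48.8 and 17.5 CPM in Sox9-high cells of KO1, KO3, WT1 and WT2, against 56.7, 89.6, 70.1 and 57.3 CPM in Sox9-low cells (difference -0.62, SE 0.20). Ccnb1, the mitotic cyclin, differed by -0.96 (SE 0.38) and Cdca8, a partner of survivin, by -0.86 (SE 0.33). Mki67, the proliferation marker, had counts in 40.4% of the Sox9-high cells and 61.7% of the Sox9-low cells over the 4 mice together, the same after thinning. Its cells by mouse were 6, 14, 11 and 7 in the Sox9-high class of KO1, KO3, WT1 and WT2, against 11, 16, 15 and 16 in the Sox9-low class. Mki67 was named outside the rule of smallest p, and these shares carry no covariates. Sox9-high cells had fewer detected genes in the median in KO1, WT1 and WT2, but 127 more in KO3. Whether the number of detected genes goes with these cell cycle values was not tested. S phase genes had a median of 0.12 in the fit (-0.22 in WT2), -0.49 without covariates and -0.42 in the sums over 32 genes, with 0 called. Of the G1 regulators, Ccnd2 differed by 1.00 (SE 0.34).

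The Sox9-high minus Sox9-low difference was also compared between genotypes. For 0 of 8473 genes (0.0%) did it differ between the mice labelled Sirt6-/- and the wild type at an adjusted limma p of 0.05 (smallest 0.834), and 483 genes (5.7%) were under an unadjusted p of 0.05. edgeR's interaction term on the sums called 0 genes as well, with 321 under 0.05 unadjusted. With 2 mice per genotype and WT2 unlike WT1, the interaction rests on few degrees of freedom. Of the genes named here, Krt1 had differences of -1.98 and -2.77 in KO1 and KO3 against 0.46 and 0.38 in WT1 and WT2. Krt10 had -1.66 and -2.28 against 0.37 and 0.21 in the same mice. Itgb1 had 2.00 and 2.28 in KO1 and KO3 against 0.07 and 0.59 in WT1 and WT2. Itga3 had 2.09 and 2.07 against -0.05 and 0.98, and Wls 1.88 and 2.44 against 0.26 and 1.08. None of these genes passed the adjustment.

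Markers of other cell types were at or near 0 in both classes for most lists, with exceptions named here. The summed level of 10 immune markers was 1.28, 0.697, 1.59 and 19.7 CPM in Sox9-high cells of KO1, KO3, WT1 and WT2, against 4.06, 1.58, 0.46 and 48 CPM in Sox9-low cells, with Lyz2 making up most of it in WT2. The 8 endothelial markers summed to between 4.28 and 11.9 CPM in Sox9-high cells and between 0 and 15 CPM in Sox9-low cells, and 4 of the 8 were at 0 in both. The 8 melanocyte markers stayed at or under 7.66 CPM in Sox9-high and 9.14 CPM in Sox9-low cells, with 5 of the 8 at 0. Of 11 fibroblast markers 6 were at 0 in both classes, and Fbln1, the 1 member that passed the filter, lay at 231, 215, 231 and 49.7 CPM in Sox9-high cells, against 226, 213, 161 and 162 CPM in Sox9-low cells. Col6a1, of the same list, lay at 91.8 CPM in Sox9-high cells of WT1 and at 0 in every other class and mouse. It had counts in 3.2% of the Sox9-high cells. The 10 gland markers summed to 249, 169, 173 and 132 CPM in Sox9-high cells, against 181, 211, 178 and 125 CPM in Sox9-low cells, nearly all of it Mgst1, a microsomal glutathione transferase with counts in 93.6% of the cells of either class. The 9 muscle and adipocyte markers summed to 0, 35.3, 2.18 and 1.55 CPM in Sox9-high cells, against 24.9, 74.2, 0.92 and 0.57 CPM in Sox9-low cells, most of it Fabp4. The part of these cells or transcripts in the other differences was not tested.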

How the data were processed

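Per the submitters' processing notes the authors used STAR, RSEM and the build mm10 (GRCm38); tool versions were not given in the sources used here. Values are the authors' expected counts for each gene in each cell. Among the non-zero deposited values 21.5% were not whole, as RSEM divides reads between similar genes, so genes with near-identical copies are uncertain. Reads carry no molecular identifiers and no strand setting is given.

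Each sample is a cell and the mouse was the replicate (2 per genotype). GENCODE M21 gave symbols to 54156 of 54247 gene IDs. No cell was left out and no doublet caller was run on the singly sorted cells. Within each mouse log2(CPM + 1) was regressed on class, log10 total counts and genes detected, over genes detected, in every mouse, in no fewer than 20% of its cells. The 4 differences were tested two-sided with limma 3.58.1 in R 4.3.3 (Benjamini-Hochberg, 0.05). Summed counts were rounded for edgeR 4.0.16 (TMM, quasi-likelihood, the test of Sox9 between genotypes) and DESeq2 1.42.0, which gave no adjusted p for 1315 genes; levels in CPM are of unscaled sums. The fit was tested on simulated data. Both classes come from the same mice, so the mouse paired them. Totals of 523999 to 1684464 counts per cell limit what low genes can show. P-values measure the spread between these 4 mice.

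The members and lists were chosen with earlier results of these data known. Genes named were the 12 per direction with 1 sign in all 4 mice and the smallest p (none was called). The 10 genes most and the 5 least correlated with Sox9 were named too, and up to 4 members per list by p. From the SOX, transcription factor and follicle lists any tested member could be named. Part of the tested transcription factors and follicle genes were left unnamed. Predicted genes, Rik clones and pseudogenes were counted but not named. Alternatives changed the pseudocount, filter, covariates, depth, scaling, class size, tool and mice.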

Additional observations from a re-analysis of the deposited data

Results flagged for a closer look

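Of 130 sets of 4 mice examined (differences of named genes, list medians and class values), 8 had a mouse set far apart from the other 3 by Dixon's test at the 95% level, which chance alone passes in about 1 of 20 sets. The Sox9-high minus Sox9-low difference in WT2 was 0.67 for Nrg1 against 2.36, 2.65 and 2.53 in KO1, KO3 and WT1. For Thbs1 it was -0.29 in WT2 against 2.88, 3.41 and 3.49 in KO1, KO3 and WT1, for Gas1 -0.20 against 1.05, 0.95 and 0.98, for Tcf7l2 -1.07 against 1.93, 1.90 and 1.69, and for Il1rn -0.05 against -1.36, -1.49 and -1.58. Notch3 stood apart in WT1, at -1.94 against -1.04, -1.08 and -1.12 in KO1, KO3 and WT2. Ajuba stood apart in KO3, at 0.07 against 1.87, 1.95 and 1.99 in KO1, WT1 and WT2. The Sox9-low cells of WT2 had a summed Sox9 level of 36.2 CPM, against 5, 0 and 5.8 CPM in KO1, KO3 and WT1, so that the lower class of WT2 was less depleted of Sox9. Whether this bears on the smaller differences of WT2 was not tested. Without covariates the differences of WT2 were 2.06 for Thbs1, 0.09 for Gas1 and -0.78 for Tcf7l2.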

How the results depend on the processing

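The count of 0 genes called by limma held for other pseudocounts (0.1 and 10), filters, scalings, thinned cells, 2 or 5 equal parts in place of 3, cells of the main plate only, no covariates and each mouse left out (0 to 0), with 601 to 936 genes under an unadjusted p of 0.05 when a mouse was left out. It moved to 381 with DESeq2 on sums and to 55 with partial correlations over all cells, and the cause was not tested. On sums, edgeR called 0 genes with the replicate block and 0 without it, with 990 and 426 genes under an unadjusted p of 0.05. Classes formed among cells with a Sox9 count only, and the immediate early level as a further covariate, were chosen after seeing the data and gave 0 called genes each. The genotype comparison stayed at 0 called in each of its alternatives. The log2 fold change of Sox9 between genotypes was -1.065 with DESeq2, and ran between -2.083 (without KO1) and -0.3171 (without WT2), so its size rests on single mice; the differences of total counts and of genes detected kept their sign, between -85213 and -12599 counts and between -800.33 and -456.33 genes with a mouse left out. Over 99 named genes and 20 alternatives no sign of the 24 leading genes turned, and 4 other genes turned. The 24 were chosen for 1 sign in all 4 mice, so leaving a mouse out could not turn their sign. The other alternatives used the same mice, so the stable signs of the 24 are a description only. Sox7 went to -0.60 without covariates, -0.20 with 5 equal parts, -0.04 in edgeR without the replicate block, -0.65 among cells with a Sox9 count and -0.24 with the immediate early covariate, and ran between -0.09 and 0.46 with a mouse left out. Sox15 ran between -0.61 and 0.01, and Fbln1 between -0.56 and 0.25, with a mouse left out, and the partial correlation of Fbln1 was 0.03. Krt10, named after its values were seen, went to 0.16 in edgeR without the replicate block. Genes detected in few cells are the least certain at totals of 523999 to 1684464 counts per cell.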

Other observations

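Translation and energy genes outside the comparisons above moved little. Of 83 cytosolic ribosomal protein genes 75 lay above 0 on average and 27 in all 4 mice, against 9.03% of all genes, with a median of 0.10 and 0 called by limma. The 16 mitochondrially encoded genes all lay above 0 on average, with a median of 0.22 and of 0.36, 0.38, 0.24 and -0.02 in KO1, KO3, WT1 and WT2, and 0 called. Interferon response and MHC class I genes had 6 of 20 tested, 0 called and a median of 0.50, while in WT2 the median was -0.08 with 4 of 6 below 0. H2-K1, a heavy chain of MHC class I, lay at 576, 276, 463 and 660 CPM in Sox9-high cells of KO1, KO3, WT1 and WT2, against 318, 222, 212 and 571 CPM in Sox9-low cells, and Ifitm3, an antiviral membrane protein, at 583, 384, 454 and 1222 CPM, against 528, 162, 336 and 946 CPM.

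A few genes under the detection filter were singled out after their values were seen and were not tested. Fabp4, the adipocyte fatty acid carrier, had counts in 3.2% of the Sox9-high cells and 24.5% of the Sox9-low cells over the 4 mice together, and in 3.2% and 23.4% after thinning. Its cells by mouse were 0, 1, 1 and 1 in Sox9-high cells of KO1, KO3, WT1 and WT2, against 10, 7, 3 and 3 in Sox9-low cells. Pparg, a nuclear receptor of lipid metabolism, had counts in 1 Sox9-high cell, of KO3, and in 9 Sox9-low cells, 4 each of KO1 and KO3 and 1 of WT2. Of the other adipocyte markers of the list, Adipoq and Cidec were at 0 in both classes and Plin1 had a count in a single Sox9-high cell. Postn, the matricellular protein periostin and a follicle gene, had counts in 7 of 94 Sox9-high cells, all from WT1 (3 cells) or WT2 (4 cells), against 0 of 94 Sox9-low cells; 1 cell held 71.9% of its Sox9-high counts.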
